A study of Mus musculus with 8 samples.

Results

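The 10 genes described here, Ascl2, Smoc2, Olfm4, Igfbp4, Tnfrsf19, Rgmb, Slc14a1, Cdca7, Ptpro and Prelp, form a signature of the stem cells at the base of the mouse intestinal crypt. They were read by 29 probe sets that the platform annotation tied to a single gene, out of 45037 probe sets and 18193 genes so named. The genes were chosen by their measured values in these arrays, with high levels in cells sorted as EphB2 high or Lgr5 high already known. Their differences between high and low cells are therefore a description and carry no test.

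Affymetrix arrays were hybridized with RNA from crypt epithelial cells of C57BL/6 mice, freed with EDTA, Dispase and DNase and separated by flow cytometry. EphB2 high, EphB2 medium and EphB2 low cells were stained with an antibody against the receptor EphB2 and had 2 arrays each, 1 in each of 2 hybridizations. Lgr5 high and Lgr5 low cells were sorted by green fluorescence from a knock-in allele of Lgr5 and had 1 array each, in a hybridization of their own. No treatment was given to any group, and the labels name no age, number of animals or pooling. Levels are log2 values from RMA, a method that corrects background, equalizes the distributions of the arrays and summarizes each probe set.

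Stem cells at the crypt base divide continuously and renew the epithelium. Wnt ligands from neighbouring cells keep them in that state, and R-spondins strengthen the signal through Lgr5. Daughter cells that move up the crypt lose EphB2 and Lgr5, divide for a time as progenitors and then differentiate into absorptive or secretory cells. The genes of the signature have different products: a transcription factor (Ascl2), secreted proteins (Olfm4, Smoc2, Igfbp4, Prelp), proteins of the cell surface (Tnfrsf19, Rgmb, Ptpro, Slc14a1) and a nuclear protein of the cell division programme (Cdca7).

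Promoter sequences were looked at because the genes, chosen for high levels in these sorts, move together across the arrays. Nothing is read from that shared movement. RefSeq windows of the 250 bases before a transcript start (build GRCm38.p6) were found for 8 of the 10 genes, 11 windows in all. Each was searched on both strands for CTTTGAT and CTTTGAA, letters that Tcf factors of the Wnt pathway bind, for CAGCTG, an E-box of the kind bound by basic helix-loop-helix factors such as Ascl2, and for TATAAA, the TATA box. These motifs do not overlap each other in the windows shown. The 4 windows below show the matches, in capitals, and the Ascl2 window, which held no match. They are chr7:142969265-142969514 on the minus strand for Ascl2, chr11:99040994-99041243 on the plus strand for Igfbp4, chr17:15831247-15831496 on the minus strand for Rgmb and chr14:61037988-61038237 on the minus strand for the second, downstream start of Tnfrsf19.
Ascl2: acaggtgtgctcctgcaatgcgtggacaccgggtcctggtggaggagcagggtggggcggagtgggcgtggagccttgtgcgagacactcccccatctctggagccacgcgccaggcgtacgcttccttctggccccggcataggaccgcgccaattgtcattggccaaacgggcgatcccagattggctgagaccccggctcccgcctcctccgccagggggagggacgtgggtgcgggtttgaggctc
Igfbp4: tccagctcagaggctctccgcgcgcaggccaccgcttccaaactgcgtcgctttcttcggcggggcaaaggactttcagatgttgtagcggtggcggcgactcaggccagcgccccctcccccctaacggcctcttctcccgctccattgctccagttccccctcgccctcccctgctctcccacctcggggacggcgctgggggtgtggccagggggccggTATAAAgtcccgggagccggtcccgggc
Rgmb: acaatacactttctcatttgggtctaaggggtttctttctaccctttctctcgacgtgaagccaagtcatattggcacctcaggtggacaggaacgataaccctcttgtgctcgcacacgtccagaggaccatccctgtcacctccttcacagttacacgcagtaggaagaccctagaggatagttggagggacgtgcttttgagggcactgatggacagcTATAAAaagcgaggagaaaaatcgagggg
Tnfrsf19: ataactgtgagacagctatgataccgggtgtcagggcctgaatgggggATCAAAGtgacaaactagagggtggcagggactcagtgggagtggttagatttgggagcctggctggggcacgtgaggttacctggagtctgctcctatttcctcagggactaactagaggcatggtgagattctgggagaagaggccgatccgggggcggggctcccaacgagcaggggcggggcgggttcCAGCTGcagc

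TATAAA lay at bases -28 to -23 from the start in Igfbp4 and at -29 to -24 in Rgmb. A window of an overlapping Rgmb start held the same letters. Of all 32851 RefSeq windows, 12.4% held TATAAA on either strand, and 1.87% held it on the gene's strand between 40 and 21 bases before the start. CTTTGAT was found in 1 of the 11 windows, the Tnfrsf19 window shown, where it lay on the other strand (printed as ATCAAAG) at -202 to -196; 3.21% of all windows held it. CTTTGAA was found in 0 of the 11 and in 4.46% of all. CAGCTG was found in the same Tnfrsf19 window at -10 to -5, and in 13.0% of all windows. A match describes the letters only, and sites outside these windows were not searched.

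**Figure D1:**
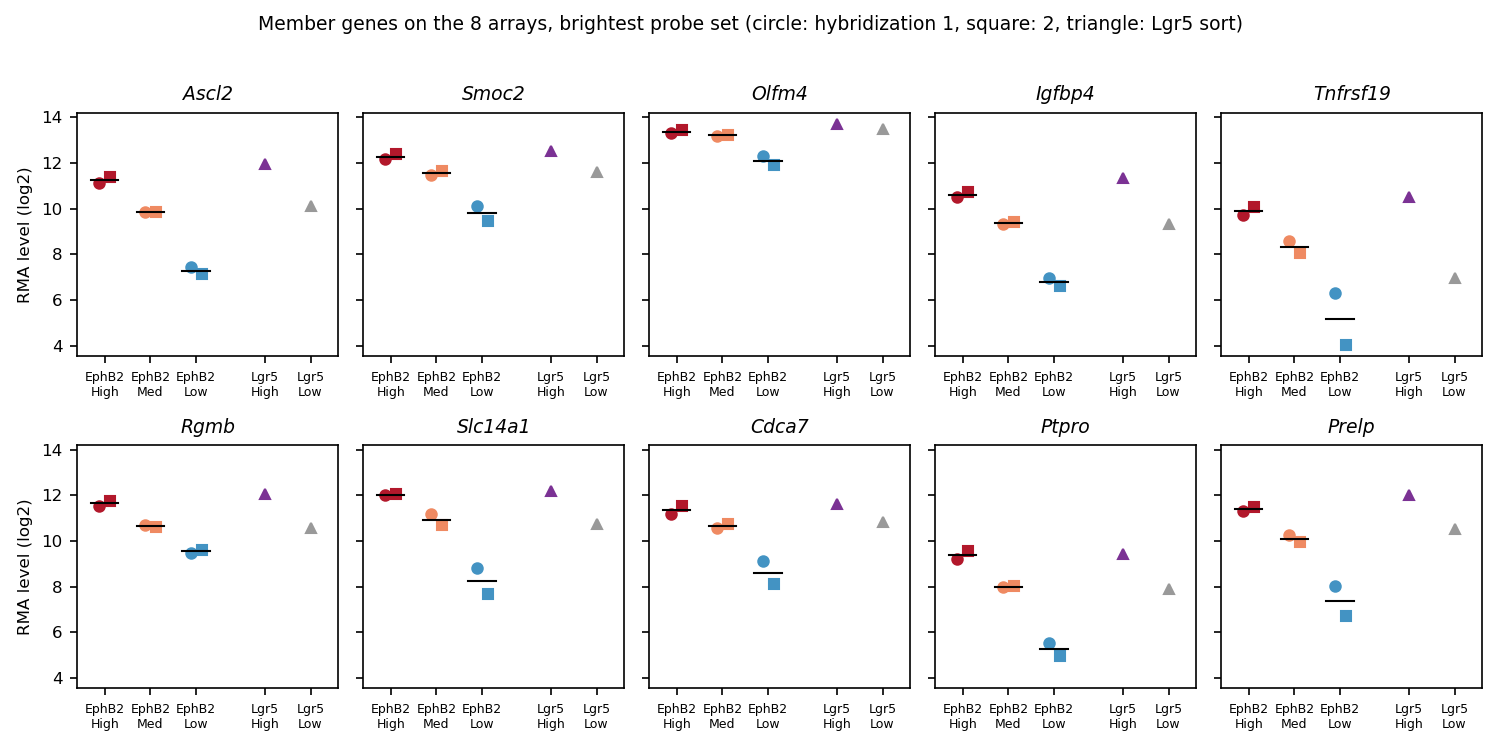
RMA level (log2, y axis) of each gene's brightest probe set on the 8 arrays (x axis: group; circles, first hybridization; squares, second; triangles, Lgr5 sort; black lines, EphB2 group means of 2 arrays). In every panel the EphB2 arrays run from high through medium to low without overlap, and the Lgr5 high array lies above the Lgr5 low array.

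Ascl2, a basic helix-loop-helix transcription factor and Wnt target needed for the stem cell state, had levels of 11.11 and 11.40 on the EphB2 high arrays, 9.87 and 9.86 on the medium arrays, and 7.42 and 7.13 on the low arrays. Lgr5 high cells were at 11.97 and Lgr5 low cells at 10.10. High, medium and low arrays did not overlap, and the 2 arrays of each EphB2 group lay close together. High exceeded low by 3.98 ± 0.17 (log2 difference, SE, n = 2 arrays per group; 15.8-fold), and Lgr5 high exceeded Lgr5 low by 1.88 (3.67-fold, 1 array each). A second bright probe set gave 3.92 ± 0.19 and 2.04, and a dim one 2.71 ± 0.22 and 2.25.

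Among the secreted proteins, Olfm4, an abundant glycoprotein of crypt base cells, was bright on every array. Its levels were 13.31 and 13.44 on the high arrays, 13.18 and 13.24 on the medium arrays, 12.32 and 11.90 on the low arrays, 13.71 for Lgr5 high and 13.51 for Lgr5 low. Its high arrays exceeded its medium arrays by 0.16 ± 0.18, less than the SE, and Lgr5 high exceeded Lgr5 low by 0.20 (1.15-fold). The fall of Olfm4 lay almost wholly between medium and low cells, at 1.10 ± 0.18. On the high, medium and Lgr5 arrays between 0.528% and 1.26% of probe sets were brighter than that of Olfm4; how far the upper limit of the arrays compressed these differences was not tested.

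Smoc2 encodes a secreted calcium-binding protein of the extracellular matrix. It was at 12.16 and 12.39 in high cells, 11.50 and 11.67 in medium cells, 10.12 and 9.46 in low cells, and at 12.53 and 11.60 on the Lgr5 high and low arrays. Its high to low difference was 2.48 ± 0.24, of which 0.70 ± 0.24 lay between high and medium. A second probe set gave 2.73 ± 0.24. Igfbp4, which binds insulin-like growth factors, was at 10.51 and 10.72 in high cells, 9.34 and 9.43 in medium cells, 6.98 and 6.62 in low cells, and at 11.35 and 9.32 in Lgr5 high and low cells. The difference between high and low was 3.81 ± 0.17 (14.1-fold) and that between the Lgr5 arrays 2.03 (4.09-fold). Igfbp4 and Ascl2 were thus nearly alike in size and in step, with high above medium by 1.23 ± 0.17 for Igfbp4 and 1.39 ± 0.17 for Ascl2.

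Prelp, a leucine-rich proteoglycan of the extracellular matrix, is better known from connective tissue. It was at 11.32 and 11.50 in high cells, 10.26 and 9.94 in medium cells, and 8.00 and 6.71 in low cells; Lgr5 high cells were at 12.004 and Lgr5 low cells at 10.52. The low arrays lay further apart than those of Ascl2 or Igfbp4, and the difference between high and low, 4.06 ± 0.41, had a larger SE. In the first hybridization it was 3.32 and in the second 4.79. Since Prelp, Smoc2 and Igfbp4 are also expressed by stromal cells, markers of these cells are given beside them. Of 15 fibroblast and smooth muscle markers, 13 were below the array median on every array, among them Col1a1, Col3a1, Dcn, Lum and Pdgfra, and limma called 0 of the 15 between high and low (1 at an unadjusted p below 0.05). Vim, not among the 13, was at -1.14 ± 0.72 (limma adjusted p = 0.314). The log2 of the list's summed signal was 10.30 and 9.53 on the high arrays, 11.19 and 9.89 on the medium arrays, 11.09 and 10.33 on the low arrays, 9.18 on Lgr5 high and 11.31 on Lgr5 low. Vim made up 33.3% to 83.5% of this sum. Without Vim, the log2 sum of the other 14 markers was 8.62 and 8.61 on the high arrays, 8.62 and 8.48 on the medium arrays, 8.62 and 8.85 on the low arrays, 8.59 on Lgr5 high and 8.71 on Lgr5 low. The part of stromal cells in the values of Prelp, Smoc2 and Igfbp4 was not tested.

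Of the surface proteins, Tnfrsf19, a Wnt-induced member of the tumour necrosis factor receptor family also called Troy, had the largest difference. Levels were 9.72 and 10.07 in high cells, 8.59 and 8.07 in medium cells, and 6.29 and 4.02 in low cells, and 10.52 and 6.97 in Lgr5 high and low cells. The second low array was below the array median, and no fold is given against it. On the log2 scale high exceeded low by 4.74 ± 0.70, by 3.43 in the first hybridization and 6.05 in the second, so the size rested on which low array was used. Without EphB2 Low replicate 1 it was 5.87 and without EphB2 Low replicate 2 it was 3.61. The Lgr5 difference of 3.55 (11.7-fold) was the largest of the 10 genes. The Lgr5 low array, at 6.97, was below both EphB2 medium arrays, by 1.36 from their mean. For the other 9 genes the Lgr5 low array was within 0.42 of that mean, between 0.19 below it (Slc14a1) and 0.42 above it (Prelp). The Lgr5 arrays had a hybridization of their own, so sort and hybridization cannot be told apart in these distances.

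Rgmb is a co-receptor for bone morphogenetic proteins anchored to the membrane. It was at 11.54 and 11.76 in high cells, 10.68 and 10.63 in medium cells, 9.49 and 9.60 in low cells, and at 12.06 and 10.59 in Lgr5 high and low cells. It was the only one of the 10 whose second low array was not the lower of the pair. High exceeded medium by 0.998 ± 0.14 and medium exceeded low by 1.11 ± 0.14, so the steps were nearly equal. Its 6 probe sets ran from 0.89 to 2.50 between high and low.

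Ptpro, a receptor-type tyrosine phosphatase, was at 9.21 and 9.56 in high cells, 7.99 and 8.01 in medium cells, 5.52 and 4.96 in low cells, and at 9.43 and 7.90 in Lgr5 high and low cells. By the brightest probe set, it was the 1 gene whose Lgr5 high array did not exceed both EphB2 high arrays. Its dim probe set did, at 6.18 against 5.74 and 5.63. Both low arrays of the brightest Ptpro probe set were below the array median. The log2 difference between high and low, 4.14 ± 0.23, is therefore given without a fold. Slc14a1, a facilitated urea transporter, was at 11.99 and 12.04 in high cells, 11.17 and 10.70 in medium cells, 8.83 and 7.67 in low cells, and at 12.18 and 10.74 in Lgr5 high and low cells. High exceeded low by 3.77 ± 0.38 (13.7-fold). Red blood cells also carry this transporter; of 7 of their markers listed, 4 were measured, all 4 lay below the array median on every array, and limma called 0 of them between high and low (1 at an unadjusted p below 0.05). That 1 was Epb42, at 1.32 ± 0.45 (limma adjusted p = 0.085) between high and low and -1.60 between the Lgr5 arrays.

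Cdca7, a nuclear zinc finger protein that Myc and E2F factors induce, was at 11.16 and 11.52 in high cells, 10.58 and 10.73 in medium cells, 9.10 and 8.11 in low cells, and at 11.63 and 10.81 in Lgr5 high and low cells. High exceeded low by 2.74 ± 0.33, by 2.06 in the first hybridization and 3.41 in the second. High exceeded medium by only 0.68 ± 0.33, and the Lgr5 arrays differed by 0.82 (1.77-fold).

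**Figure D2:**
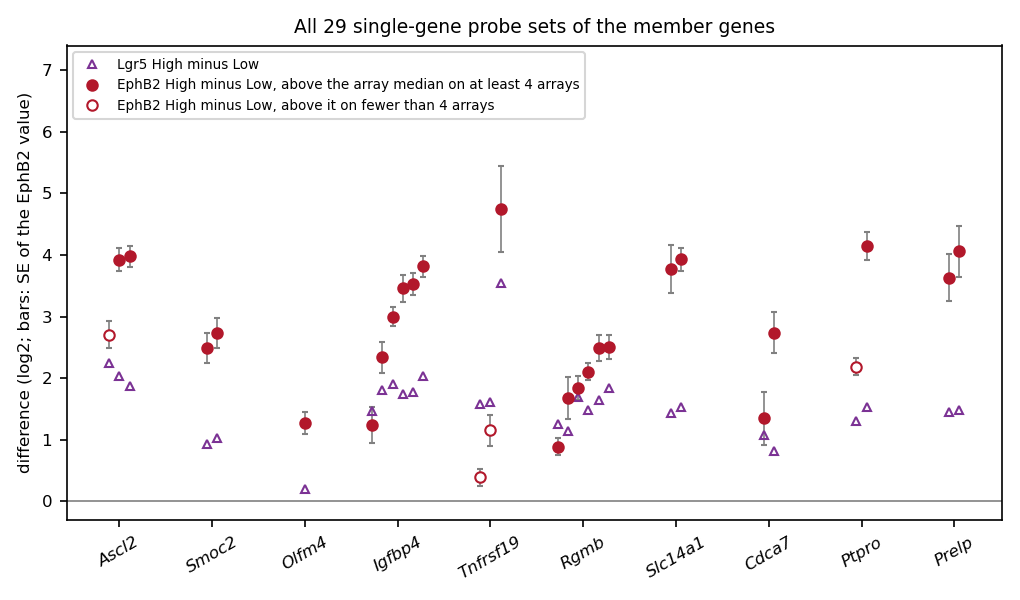
Difference (log2, y axis) between EphB2 high and low (circles, mean of 2 arrays each, bars SE) and between the Lgr5 arrays (triangles, 1 array each) for each of the 29 probe sets, by gene (x axis). Open circles are probe sets above the array median on fewer than 4 arrays; all 29 are above 0 in both sorts, and the dim Tnfrsf19 probe sets are far below the bright one.

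Probe sets of the same gene differed in size but not in direction. The high, medium and low arrays were in that order without overlap in 26 of the 29, as in 13.0% of all probe sets; the exceptions were the dim Tnfrsf19 probe sets and the second one of Cdca7. All 29 were higher in EphB2 high than in EphB2 low cells and higher in Lgr5 high than in Lgr5 low cells. Of the 29, 25 had a mean over the EphB2 arrays at or above that of the median probe set; the brightest of each of the 10 genes was among them. Between high and low the range was 0.39 to 4.74 for Tnfrsf19, 1.24 to 3.81 for Igfbp4, 2.19 to 4.14 for Ptpro and 1.35 to 2.74 for Cdca7. All 6 Igfbp4 probe sets are of a class that can match more than a single transcript. Ascl2, Smoc2, Tnfrsf19, Ptpro and Prelp also have probe sets of this class, the brightest of Ptpro and Prelp among them. For Smoc2, Slc14a1 and Prelp the pair of probe sets differed by less than 0.5. The smallest value, 0.39 ± 0.14, was that of a Tnfrsf19 probe set that lay below the array median on all 8 arrays. On the same probe set Lgr5 high exceeded Lgr5 low by 1.58, with levels of 6.05 and 4.47, while the 6 EphB2 arrays ran from 4.67 to 5.24. The other dim Tnfrsf19 probe set also had its highest level, 6.95, on the Lgr5 high array. Which transcripts of Tnfrsf19 the 3 probe sets read was not tested.

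Limma, fitted to all probe sets with Benjamini-Hochberg adjustment and a threshold of 0.05, called 27 of the 29 probe sets and all 10 brightest ones higher in EphB2 high than low cells, where 15.4% of all probe sets were called higher. For medium over low the counts were 23 of 29 and 10 of 10, with 8.54% of all called higher. For high over medium the counts were 1 of 29 and 0 of 10, with 0.0178% of all called higher, 8 probe sets in all. The genes were chosen on high and low cells, and the other comparisons share arrays with that choice, so nothing is read from these counts. The probe set called between high and medium was a dim one of Ptpro (1.32 ± 0.13, adjusted p = 0.0417), and it was lost with the hybridization as a block (adjusted p = 0.0573). At an unadjusted p below 0.05 limma found 7 of the 10 brightest and 24 of the 29 probe sets between high and medium, and 10.03% of all probe sets in either direction. Without EphB2 Medium replicate 1 or 2, fewer of the 10 were called between medium and low, and calls over all probe sets fell too.

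**Figure D3:**
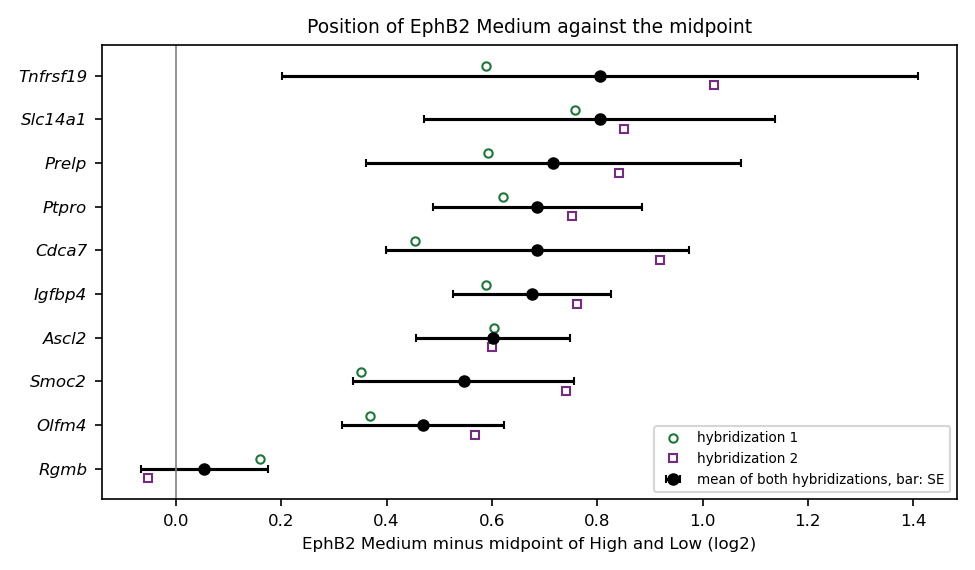
EphB2 medium minus the midpoint of EphB2 high and low (log2, x axis) for the brightest probe set of each gene (y axis). Black points are the means with limma's SE (2 arrays per group), and open symbols give each hybridization; 9 genes lie above 0 in both hybridizations, and Rgmb lies near 0.

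The place of the medium cells between high and low was tested as medium against the midpoint of high and low, a contrast that is orthogonal to the difference of high and low at equal group sizes. It contains the same high and low arrays, so it is not independent of a choice of genes made on their level in high cells. On the log2 scale and by the brightest probe set, the medium mean lay above the midpoint in all 10 genes. The distance was 0.05 ± 0.12 in Rgmb to 0.81 ± 0.60 in Tnfrsf19 (median 0.68). A midpoint of log2 values is lower than that of the unlogged signal, on which the position was not tested. High means exceeded medium means by more than 2-fold in Ascl2, Igfbp4, Tnfrsf19, Slc14a1, Ptpro and Prelp, from 2.12-fold (Slc14a1) to 2.96-fold (Tnfrsf19). Unlogged, the medium means of these genes thus lay below the midpoint, so the position above it depends on the log2 scale. On that scale, medium lay above the midpoint in both hybridizations in 9 of 10 genes. In Rgmb it was 0.16 above and 0.05 below. The same held for 20 of the 29 probe sets, for 30.9% of all probe sets and for 86.6% of 872 others called higher in high cells with a log2 difference of at least 2. The place of the medium mean is also given as a percent of the log2 difference from low to high. By the brightest probe set it was 87.0% for Olfm4, 75.1% for Cdca7, 72.0% for Smoc2 and 71.3% for Slc14a1. It was 67.7% for Igfbp4 and Prelp, 67.0% for Tnfrsf19, 66.6% for Ptpro, 65.1% for Ascl2 and 52.6% for Rgmb. Of the 29 probe sets, 24 were above 50%. Other probe sets of the same gene were as low as 7.29% for Tnfrsf19, 28.4% for Igfbp4, 39.5% for Ptpro and 48.7% for Rgmb. The median of the 10 was 67.7%. Among the same 872 other probe sets the median was 74.2% (quartiles 65.0% and 81.0%), and 93.6% lay above the midpoint.

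None of these departures passed the test. Limma called 0 of the 10 genes and 0 of the 29 probe sets above the midpoint, with adjusted p from 0.437 (Igfbp4) to 0.937 (Rgmb) for the brightest ones. It called 0 of all 45037 probe sets above and 0 below, so percent called was 0 in both directions. At an unadjusted p below 0.05 there were 5 of the 10 genes (Ascl2, Smoc2, Olfm4, Igfbp4 and Ptpro) and 11 of the 29 probe sets, and 8.97% of all probe sets. Among the brightest probe sets, the largest relative to its error was that of Igfbp4, 0.68 ± 0.15.

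**Figure D4:**
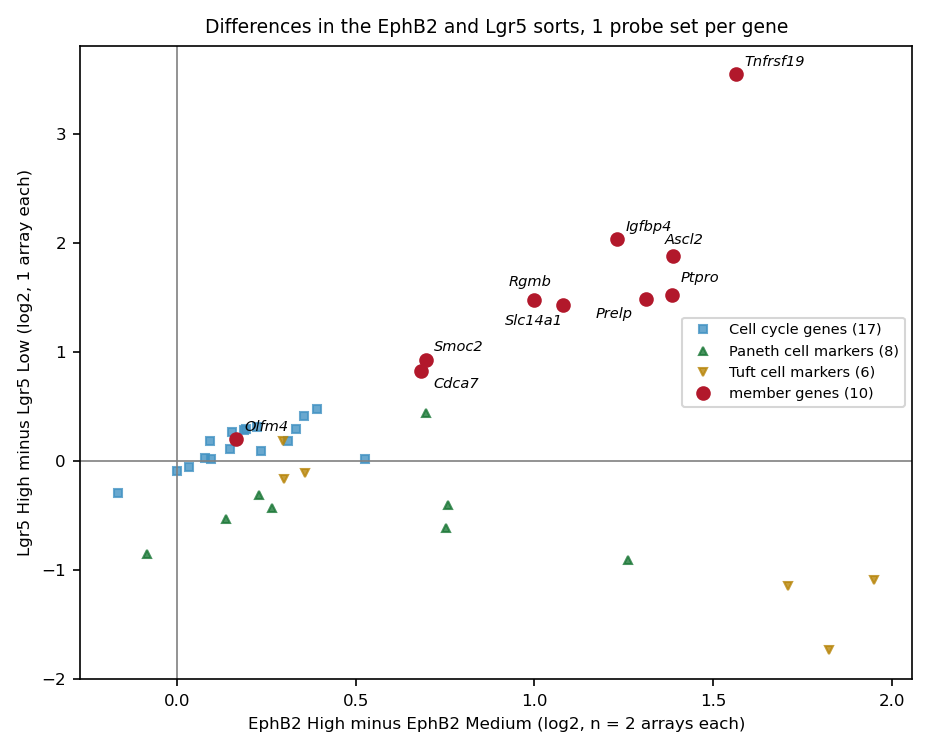
Difference between EphB2 high and medium (log2, 2 arrays each, x axis) against that between Lgr5 high and low (log2, 1 array each, y axis), 1 probe set per gene. All member genes (red) lie above 0 on both axes, with Olfm4 (0.16 and 0.20) within the range of the cell cycle genes (blue). Cell cycle genes run from -0.16 to 0.52 on the EphB2 axis and from -0.29 to 0.48 on the Lgr5 axis. On the Lgr5 axis 5 of 6 tuft and 7 of 8 Paneth cell markers (gold, green) lie below 0.

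The Lgr5 sort used separate arrays, of cells from mice with the Lgr5 reporter. With 1 array per group it has no replicate check. High levels in Lgr5 high cells were known when the genes were chosen, so nothing is read from the counts that follow. Of the 10 genes, 7 were at least 2-fold higher in Lgr5 high cells, as were 26 of the 29 probe sets, where 2.31% of all probe sets and 2.34% of brightest ones were. The exceptions were Smoc2 (0.93), Cdca7 (0.82) and Olfm4 (0.20). The median log2 difference over the 10 was 1.48, against -0.05 over all genes. Every one of the 10 had a larger difference between the Lgr5 arrays than between EphB2 high and medium, by the brightest probe set. The dim Ptpro probe set went the other way, with 1.31 between the Lgr5 arrays and 1.32 between high and medium. The share of all probe sets with a larger Lgr5 difference was not counted. On the Lgr5 high array 9 of the 10 were above both EphB2 high arrays by the brightest probe set. So were 27 of the 29 probe sets and 34.0% of all probe sets. The 9 genes exceeded the mean of the EphB2 high arrays by 0.16 (Slc14a1) to 0.74 (Igfbp4). Lgr5 itself was at 9.48 and 9.64 in EphB2 high cells, 7.70 and 8.01 in medium cells, 5.66 and 4.96 in low cells, and at 10.15 and 5.75 in Lgr5 high and low cells. A second, dimmer Lgr5 probe set was at 4.995 on the Lgr5 low array, against 4.17 and 3.97 on the EphB2 low and 5.88 and 4.70 on the medium arrays. On the Lgr5 low array both Lgr5 probe sets and all 10 signature genes were above both EphB2 low arrays.

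Between EphB2 high and low, other gene groups rose with the signature. Of 17 measured cell cycle genes 16 were called higher (median 1.72), led by the mitotic kinases Plk1 (2.42 ± 0.38), Bub1 (2.36 ± 0.37) and Aurkb (2.13 ± 0.36), where 19.6% of brightest probe sets were called higher. Between high and medium their median was 0.19, with a range of -0.16 to 0.52, and between the Lgr5 arrays 0.18, from -0.29 to 0.48. The medians of the signature in these comparisons were 1.16 and 1.48. Cdca7, whose product belongs to the division programme, was above all 17 in both (0.68 and 0.82), whereas Olfm4 (0.16 and 0.20) lay within their range. Limma called 0 cell cycle genes between high and medium (0 at an unadjusted p below 0.05 too), and the difference between the lists was not tested.

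Of 38 further stem cell signature genes measured, 35 were called higher in high than low cells and 3 did not pass, Nkd1, Vdr and Phlda1 (median 2.15). The list was drawn up with results of these arrays known, and its direction has no independent support here. Cyp2e1, a cytochrome P450 enzyme, differed by 4.73 ± 0.29, Lgr5 by 4.25 ± 0.26 and the protocadherin Pcdh8 by 3.95 ± 0.21. In the Lgr5 sort 19 of the 38 were at least 2-fold higher (median 1.05), with Fstl1, a secreted glycoprotein, at 2.94 next after Lgr5 at 4.39. Between high and medium their median was 0.65. Of 18 Wnt feedback and target genes 13 were called higher between high and low and 1 lower (Wif1, a secreted Wnt inhibitor, -1.08 ± 0.22, dim on every array), with a median of 1.49. Cd44, an adhesion receptor, differed by 2.95 ± 0.39 and Ephb3 by 2.84 ± 0.16. Both lists share members, Lgr5 and Axin2 among them.

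Markers of other cell types moved with the sorts as follows. Of 14 enterocyte markers all 14 were called lower in high than low cells (median -3.14; 13.2% of brightest probe sets were called lower), among them the glucose transporter Slc2a2 (-5.63 ± 0.30) and lactase, Lct (-5.14 ± 0.30), and all 14 were lower in Lgr5 high cells. Of 8 Paneth cell markers 6 were called higher in EphB2 high cells (median 1.41), led by Pla2g2a (2.76 ± 0.15), but 7 of 8 were lower in Lgr5 high than Lgr5 low cells (median -0.48). Of 6 tuft cell markers 2 were called higher in EphB2 high cells, Dclk1 (3.36 ± 0.53) and Alox5ap (2.18 ± 0.41), and 5 of 6 were lower in Lgr5 high cells (median -0.63). The other 4 tuft cell markers did not pass between high and low. The part of Paneth and tuft cells in the EphB2 values of the signature was not tested.

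In EphB2 high against low cells limma called 2 of 8 goblet cell markers higher and 3 lower, and of 10 enteroendocrine markers 1 higher and 4 lower; all 18 were lower in Lgr5 high cells. Of 11 lymphocyte markers 1 was called higher and 3 lower, with 8 below the array median on every array, and the granzyme gene Gzma was at 7.05 on the Lgr5 high array against 4.04 on Lgr5 low and 3.14 to 6.03 on the EphB2 high and low arrays. Of 11 myeloid markers 2 were called higher, Cd68 (1.44 ± 0.41) and Lyz2 (0.65 ± 0.16), with 8 below the array median everywhere, among them the neutrophil genes S100a8, S100a9, Mpo and Elane. Of 8 endothelial markers 2 were called higher and 1 lower, and all 8 were below the array median on every array. In sorted bulk samples, fewer cells of a type and less RNA per cell cannot be told apart.

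The spread between hybridizations had a direction. In all 10 genes the difference between high and low was larger in the second hybridization, and the same held for 27 of the 29 probe sets and for 93.3% of the 872 other probe sets that were high in EphB2 high cells. Most of it came from the low arrays: the second was lower than the first by a median of 0.61 (difference -2.26 in Tnfrsf19 to 0.11 in Rgmb), while the second high array was above the first by a median of 0.22 (0.05 to 0.36). The cell cycle list had medians of 10.42 and 9.59 on these low arrays, and the further stem cell genes 8.90 and 8.00, while the enterocyte markers were at 13.59 and 13.66. The part of proliferating cells in the low gate was not tested.

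Profiles over the 8 arrays were highly correlated but differed in size, with high to low differences from 1.27 (Olfm4) to 4.74 (Tnfrsf19). The genes were chosen with high levels in these same sorts known, so nothing is read from their correlation. The correlation of each gene with the mean of the other 9 ran from 0.944 (Olfm4) and 0.954 (Tnfrsf19) to 0.995 (Smoc2) over 8 arrays that share the sort gates and hybridizations. Among 2018 other genes with a range of at least 2 on the log2 scale, the profiles most like the mean of the signature were those of Sorbs2, Pde3b, Greb1, Epha4, Cdk6, Fbxo21, Tnfaip8l1 and Sfrp5, with Pearson's r from 0.996 to 0.998. Sorbs2, which encodes an adaptor protein of the cytoskeleton, ran from 6.13 on the second low array to 11.06 on the Lgr5 high array. Sfrp5 encodes a secreted Wnt antagonist and was at 9.47 and 9.84 in high cells and 7.22 and 6.39 in low cells. Gene by gene, the closest profiles were Pls3 for both Ascl2 and Igfbp4, Nme4 for Smoc2, Tceal9 for Olfm4, Zfhx3 for Tnfrsf19, Afap1l1 for Rgmb, B9d1 for Slc14a1, Cdo1 for Cdca7, Fzd2 for Ptpro and Tmem9 for Prelp (r from 0.991 to 0.999). Tceal9 resembled Olfm4 in its small steps, with a high to low difference of 1.47 ± 0.23 and a Lgr5 difference of 0.31, and Fzd2, a Wnt receptor, resembled Ptpro, with 3.61 ± 0.23 and 1.503.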

How the data were processed

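Per the submitters' processing notes, the deposited log2 values were made with RMA; its version and whether the 8 arrays were run together are not given in the sources used here. Of 45101 probe sets, 64 controls were left out. Platform annotation named 1 gene for 34945 probe sets, several for 932 and none for 9160; Ephb2, read by no probe set of its own, was not analysed here. The brightest probe set over the EphB2 arrays stood for a gene. Array medians ran from 6.12 to 6.20.

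Limma 3.58.1 in R 4.3.3 (lmFit, contrasts.fit, eBayes, 2-sided; Benjamini-Hochberg over 45037 probe sets) was fitted to the 6 EphB2 arrays by group, leaving 3 residual degrees of freedom, and tested on simulated data. Whether replicates are separate animals is not in the labels; the p-values cover only how far these arrays spread, and that spread may be technical. Among the EphB2 arrays, replicate numbers mark shared hybridizations. This does not extend to the Lgr5 arrays, which had a hybridization of their own. Same-numbered EphB2 deviations correlated at 0.47 (high, medium), 0.18 (high, low) and 0.26 (medium, low), and a block for them was an alternative. For arrays, their number limits the precision. Members, the 13 gene lists and tests were chosen with earlier results of these data known. Named genes were the members, Lgr5, the closest profiles (range at least 2), and up to 3 genes per list of largest high to low difference; other genes given beside a count, such as Fstl1 and Wif1, were named after their values were seen.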

Additional observations from a re-analysis of the deposited data

How the results depend on the processing

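The 10 brightest probe sets were refitted under 12 alternatives: a replicate block for the hybridization, quantile normalization, a filter on dim probe sets, 1 probe set per gene, trend and robust eBayes, all 8 arrays, and each EphB2 array left out. With every EphB2 array kept, limma called all 10 higher in high than low cells and 0 above the midpoint. The paired fit with the replicate block was among these (10 and 0). As the genes were chosen on high and low cells, nothing is read from counts called high over low, high over medium or medium over low. Over all probe sets the midpoint test called 0 in each alternative except 1 probe set per gene, where it called 1, lower. For high over medium, 0 genes were called in the main setting and with the replicate block, and 1 with quantile normalization. The count was 3 each with the dim filter, with 1 probe set per gene and with trend and robust eBayes. Over all probe sets tested, 8, 13, 13, 39, 39 and 45 were called higher in high than medium cells, in the same order of settings. The number tested was 45037, except 22519 with the dim filter and 18193 with 1 probe set per gene. The 2 settings that remove probe sets test fewer features; for the others the cause was not tested. For medium over low, leaving out 1 array gave 3 to 10 genes, and 3 without either medium array. In the Lgr5 comparison 2 genes passed 4-fold and 9 passed 1.5-fold. The shares of all probe sets past these folds are not given here, so nothing is read from these counts. The medium to midpoint value of Rgmb ran from -0.00019 (without EphB2 High replicate 1, the 1 reversal) to 0.109 (without EphB2 High replicate 2); the cause was not tested. In probe set counts the replicate block called 28 of 29 between high and low. Over all probe sets and in both directions, calls between high and low were 12335, against 5898 to 10728 with 1 array left out; between medium and low they were 6900, against 531 and 908 with the second or first medium array left out, 2084 without the second low array, 4191 without either high array and 6240 without the first low array. Between high and medium they were 135, against 81 with the block, 299 with the dim filter, 248 with 1 probe set per gene, 464 with trend and robust eBayes and 0 with any array left out.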
